A study of Mus musculus with 24 samples.

Results

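Brown preadipocytes induced to differentiate for 4 days with EGCG were compared with control cells from the same depot and day, 6 of the 24 RNA-seq libraries of the series (3 EGCG, 3 control), chosen by their labels for depot, day and treatment. The cells were the stromal vascular fraction, the non-adipocyte cells freed from fat by collagenase, of interscapular brown adipose tissue (BAT) from 6-week-old C57BL/6 mice. All 6 cultures were grown to near confluence and then received induction medium with insulin, dexamethasone and 3-isobutyl-methylxanthine up to day 4. EGCG (epigallocatechin gallate, the main catechin of green tea) was added to the treated cells and its solvent DMSO to the controls. The labels give neither the EGCG dose nor whether replicates came from separate animals or cultures, so the tests below measure the spread between these libraries, which may be technical. The other 18 libraries are WAT cells (inguinal white adipose tissue) at days 4 and 8 and BAT cells at day 8, and are used here only where they show how BAT day 4 differs.

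Stromal cells become adipocytes when hormones switch on PPARγ (Pparg) and C/EBPα (Cebpa), which then activate the genes of fatty acid uptake, triglyceride storage and mitochondrial fuel use. Brown adipocytes add a thermogenic programme around the uncoupling protein Ucp1. Undifferentiated stromal cells instead carry actin stress fibres, whose genes are driven by the factors SRF (with its actin-sensing partner MRTF) and YAP/TAZ, and shrinkage of this contractile state normally goes along with adipocyte formation.

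Expression was given as FPKM, a read count scaled to gene length and library size. The 6 libraries held 16803199 to 49311089 reads in genes, the third replicate of each group being the shallow pair. Replicates 1 and 2 were deposited in a table apart from replicate 3. In both groups 332 genes differed at least 4-fold between the third replicate and the mean of the first pair, among them Gapdh (33.9 and 39.3 against 1254 FPKM in controls), so replicate 3 was kept out of the test and read for direction only. On the genes with at least 50 reads, log2 values of replicates 1 and 2 differed with an SD of 0.194 in controls and 0.178 with EGCG.

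The depot label held in all 6 libraries for Zic1 and Hoxc10, picked from lists of brown and white depot identity genes. Zic1, a transcription factor gene of brown fat precursors, lay between 9.29 and 11.1 FPKM, against 0.0243 to 0.163 FPKM in the 6 WAT day 4 libraries. Hoxc10, a homeobox gene of the posterior body where inguinal fat lies, was at 0.0582 FPKM or less, against 6.28 to 9.68 FPKM in WAT. Not every listed gene lay in the direction of its list when WAT day 4 controls were set against BAT day 8 controls. These groups differ in day as well as depot, so the depot alone cannot be read from them. Lhx8 of the brown list was at 16.3 to 19.3 FPKM in WAT day 4 controls and 8.765 to 10.3 FPKM in BAT day 8 controls. En1 of the white list was at 3.11 to 3.56 FPKM and 5.025 to 5.835 FPKM in the same groups. The cells were differentiating, with Fabp4, the fatty acid carrier of adipocytes, at 4219, 4918 and 5456 FPKM in controls. Ucp1 was almost absent at this day, at 0.423, 0.243 and 0.217 FPKM in controls and 0.0139, 0.0247 and 0.101 FPKM with EGCG. Its EGCG values lay close to the 0.0304 to 0.0827 FPKM that 3 reads give a gene of 2000 bases, so no fold is read from them.

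EGCG changed 6838 of 14095 genes tested (48.5%) at an adjusted p below 0.05 by limma, on log2(FPKM + 1) with replicates 1 and 2. Of all genes tested 27.9% were called higher and 20.6% lower, and the median change was 0.03. Counts of called list members in BAT day 4 below stand beside these shares. Changes of at least 2-fold were fewer, at 3.38% of the genes upward and 2.75% downward. Folds and log2 changes here are of FPKM + 1, which understates those of genes at a few FPKM or less. The third replicate, which the test did not use, gave the same direction for 96.12% of the called genes, against 79.09% of all genes tested. Of the 265 called genes that did not, 170 went the other way and 95 were listed at 0 in both of its libraries. Without regard to the test, 30.4% of genes had all 3 EGCG libraries above all 3 controls and 20.2% had them all below.

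**Figure D1:**
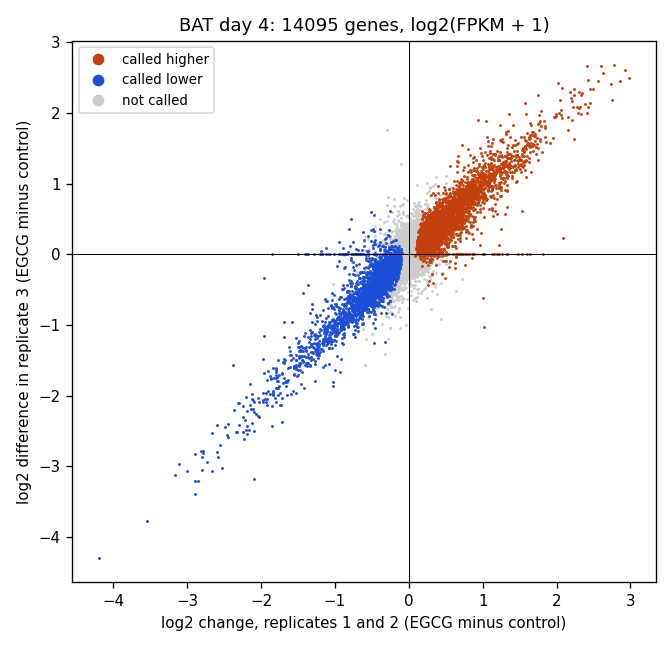
Each point is 1 of 14095 genes, with the log2 change from replicates 1 and 2 on the x axis and the log2 difference in replicate 3 on the y axis, both as EGCG minus control on log2(FPKM + 1). Called genes lie mostly in the lower left and upper right corners, where 96.12% of them share their sign, and a line of points at 0 on the y axis holds the 95 called genes listed at 0 in replicate 3.

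The genes that rose most were led by the cytoskeleton and matrix genes of contractile stromal cells. Actg2, smooth muscle γ-actin (mm9 chr6:83462899-83486259), Acta2, smooth muscle α-actin (chr19:34315580-34329826), and Tagln, the actin-binding transgelin (chr9:45737711-45744141), were 7.92-, 7.29- and 6.67-fold higher. The folds of this paragraph, and the order they give, are of FPKM + 1. They are smaller than folds of FPKM, most so for genes low in controls. Actg2 was at 2.98, 4.30 and 4.69 FPKM in controls and 43.4, 28.8 and 31.0 FPKM with EGCG. Ctgf (chr10:24315248-24318489), a secreted matrix protein and classical YAP target, was 6.75-fold higher. Anxa3, an annexin gene listed here among progenitor markers, went from 9.50, 10.7 and 8.94 FPKM in controls to 77.8, 72.4 and 62.6 FPKM with EGCG, without overlap between the groups. Cryab, a small heat shock protein that chaperones desmin and actin filaments, was 7.63-fold higher, and Pmaip1, the p53 target NOXA, was 6.19-fold higher. The others were Il1rl1 (the receptor of interleukin 33, 6.06-fold), Npnt (nephronectin, an integrin ligand of basement membranes, 5.64-fold), Cck (cholecystokinin, 5.46-fold) and Ass1 (argininosuccinate synthase, the step before arginine, 5.45-fold). Their limma adjusted p ran from 7.6e-10 for Anxa3 to 4.9e-05 for Cck, whose replicates spread widely (5.45, 1.87 and 4.10 FPKM in controls, 29.7, 16.9 and 21.6 FPKM with EGCG). The spans of Ctgf, Tagln and Npnt, introns included, overlap those of Gm15270, Pcsk7 and a U6 RNA copy on either strand. Whether this affects their reads was not tested.

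The genes that fell most were largely adipocyte genes. Car3, the carbonic anhydrase that fat cells make in large amounts (chr3:14863538-14872351), went from 1251, 1532 and 1580.0 FPKM to 61.2, 90.8 and 79.8 FPKM, and fell by 4.20 ± 0.16 (SE) on the log2 scale. Thrsp, a nuclear regulator of fatty acid synthesis (chr7:104561448-104566240), and Elovl3, the fatty acid elongase of brown fat (chr19:46206387-46210184), fell by 3.55 and 3.16. Elovl3 was at 10.2, 12.9 and 12.3 FPKM in controls and at 0.666, 0.172 and 0.527 FPKM with EGCG, close to loss. Dgat2, the last enzyme of triglyceride synthesis, was at 262, 309.6 and 348 FPKM against 33.6, 35.9 and 40.7 FPKM. Slc2a4, the insulin-dependent glucose carrier GLUT4, was at 17.0, 22.3 and 23.2 FPKM against 1.92, 1.92 and 2.53 FPKM. Every control lay above every EGCG library for each of them, which the choice of genes by these same libraries favours. The rest were the adipokines resistin (Retn, log2 change -2.90) and adipsin (Cfd, -2.81), the acyl-CoA synthetase Acsl1 (-2.79), the alcohol dehydrogenase Adh1 (-3.11), the melanocortin receptor Mc5r (-2.89) and the membrane protein Tmem45b (-2.90). Tmem45b was at 8.6, 7.89 and 10.5 FPKM in controls and 0.232, 0.245 and 0.245 FPKM with EGCG. At such low values the log2(FPKM + 1) scale understates the fall, so the order by log2 change is not an order by FPKM ratio. Elovl3 overlaps Pitx3 and Adh1 overlaps Gm16559.

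**Figure D2:**
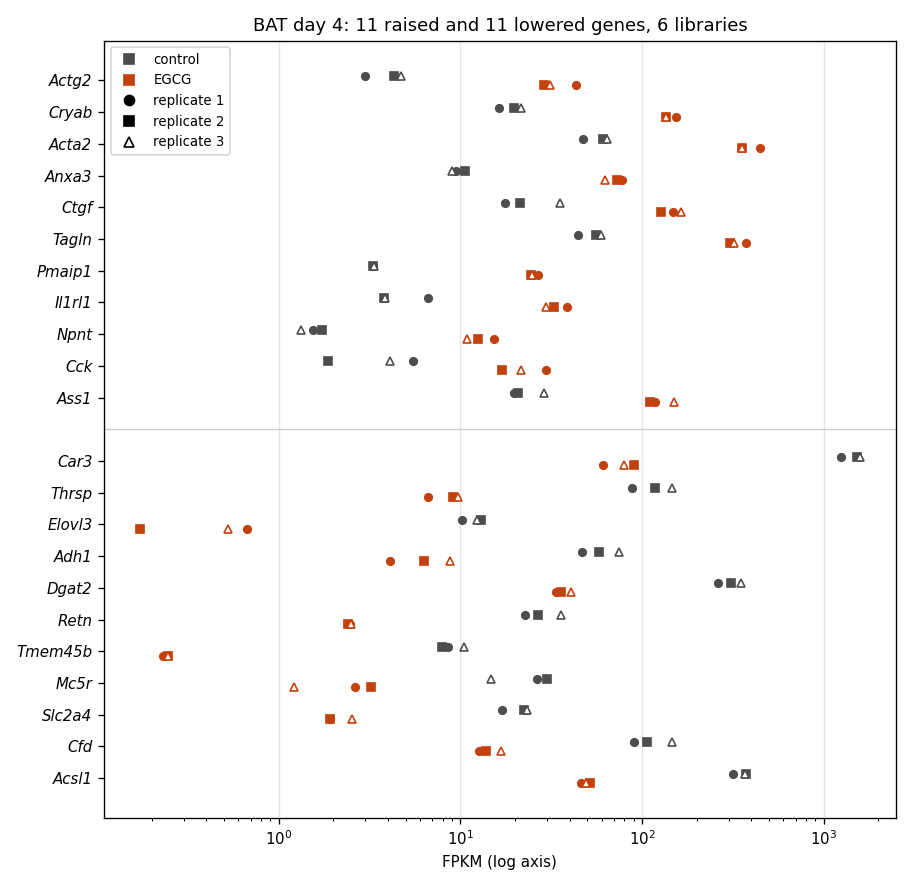
FPKM on a log axis of 22 of the genes that changed most, 11 up and 11 down, with 1 line per gene, control libraries in grey and EGCG libraries in orange, and replicate 3 as open triangles. In none of the 22 genes do the groups overlap. Their choice, by large called changes of the same sign in all 3 replicates, favours this. Of all genes 30.4% had every EGCG library above every control and 20.2% below. Tmem45b shows the widest gap on this axis, from 7.89 to 10.5 FPKM in controls down to 0.232 to 0.245 FPKM. Car3 goes from 1251 to 1580.0 FPKM down to 61.2 to 90.8 FPKM.

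The master factors of adipogenesis were lower with EGCG. Pparg was at 78.9, 94.6 and 89.9 FPKM in controls and at 23.6, 26.7 and 22.4 FPKM with EGCG. Cebpa was at 228, 272 and 296 FPKM against 72.7, 77.5 and 90.7 FPKM. Neither gene overlapped between the groups, and each fell to about 0.3 of its control level (log2 change -1.75 ± 0.11 and -1.72 ± 0.10, SE, limma adjusted p = 1.3e-07 and 1e-07). Of 18 factors listed, 13 fell, 3 rose and 2 were not called, against 20.6% of all genes called lower and 27.9% called higher. The falls included Nr1h3 (the oxysterol receptor LXRα, -1.50), Ppargc1b (a mitochondrial coactivator, -1.63), Klf15 (-1.17) and the early B-cell factor Ebf2 of brown precursors (-0.54). The 3 that rose act early, before the master factors, and were Cebpb (0.56), Cebpd (0.31) and Egr2 (0.93). Cebpb was at 99.0, 94.9 and 155 FPKM in controls and at 148, 139 and 256 FPKM with EGCG, with replicate 3 high in both groups, so that the lowest EGCG values lay below the highest control.

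Of 24 mature adipocyte genes 23 passed the filter on low values (Cd300lg did not), and all 23 of those fell, with a median change of -2.17. Adiponectin (Adipoq), the main secreted protein of fat cells, was at 285, 333 and 377 FPKM in controls and 66.3, 69.2 and 66.3 FPKM with EGCG. Fabp4 was at 993, 1003 and 1016 FPKM with EGCG, which is 0.219 of the control level given above. The lipid droplet proteins Cidec (-2.25) and perilipin 1 (Plin1, -2.24) and the lipases Lipe (-2.22) and Pnpla2 (-1.78) moved by similar amounts. The nuclear corepressor Nrip1 fell by 0.39. Leptin (-0.48) lay near or below 1 FPKM, where the log2(FPKM + 1) scale understates a change. Since these are bulk cultures, fewer adipocytes and less RNA per adipocyte cannot be told apart, here and in the metabolic lists that follow.

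Triglyceride assembly was lower at nearly every step. Of 15 tested genes 14 fell and none rose (median -1.49). Besides Dgat2 and Acsl1 these were the glycerol phosphate dehydrogenase Gpd1 (79.4, 97.4 and 148 FPKM to 12.6, 12.3 and 18.4 FPKM), the acyltransferases Gpam (-1.55) and Agpat2 (-1.92), the fatty acid carrier Slc27a1 (-2.24) and pyruvate carboxylase Pcx (-1.84), which feeds glyceroneogenesis. Mogat1, of an alternative route to diacylglycerol, was not called (-0.01).

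Fatty acid synthesis was mostly lower. Of 18 genes 13 fell, 2 rose and 3 were not called (median -1.21). Fatty acid synthase Fasn was at 193, 234 and 233 FPKM in controls and 59.5, 60.6 and 56.2 FPKM with EGCG. Stearoyl-CoA desaturase Scd1 was at 1633, 1840.0 and 1853 FPKM against 529, 491 and 466 FPKM. Both fell to about 0.29 of the control level without overlap. Their regulators Srebf1 (SREBP1, -1.78) and Mlxipl (ChREBP, -1.97) fell by like amounts. The polyunsaturated fatty acid desaturases Fads1 (0.18) and Fads2 (0.30) rose, and the citrate-cleaving enzyme Acly (-0.46) and the elongases Elovl5 (-0.04) and Elovl6 (-0.26) were not called. Cholesterol synthesis, which SREBP2 controls, changed less: 15 of 23 genes fell, 2 rose and 6 were not called, with a median of -0.32 and Srebf2 itself at 0.10 (not called).

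In the list of lipolysis and droplet proteins 12 of 16 fell and 2 rose. The risers were Plin3 (0.60), the droplet coat that most cell types carry, and Hilpda (0.98), a lipase inhibitor induced by hypoxia. The adipocyte coats and lipases fell as given above, together with the lipase inhibitor G0s2 (-2.10), the phosphodiesterase Pde3b (-1.52) by which insulin restrains lipolysis, and the adrenergic receptor Adrb3 (-0.92).

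Nuclear genes of mitochondrial fuel use were mostly lower. All 20 citric acid cycle and pyruvate dehydrogenase genes fell (median -0.74). Isocitrate dehydrogenase Idh3a was at 95.8, 104 and 109.9 FPKM in controls and 34.6, 32.3 and 36.1 FPKM with EGCG, and citrate synthase Cs at 161, 179 and 174 FPKM against 79.5, 82.8 and 73.1 FPKM. Neither overlapped. Of 19 genes of fatty acid oxidation 18 fell (median -0.76), led by the acyl-CoA dehydrogenases Acadl (-1.49) and Acadm (-1.46). The exception was Cpt1a (0.51), the liver form of the carnitine transferase that admits fatty acids to mitochondria.

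Breakdown of the branched-chain amino acids, a fuel of differentiating adipocytes, had 18 of 20 genes lower (median -0.77). Bcat2, the mitochondrial transaminase of the first step, was at 106, 128 and 148 FPKM in controls and 24.1, 25.1 and 31.0 FPKM with EGCG, and fell most (-2.20). Acad8, a dehydrogenase of the valine branch, was the 1 gene that rose (0.25).

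The respiratory chain showed many small changes. Of 75 nuclear subunits of complexes I to V, 69 fell, none rose and 6 were not called, with changes from -1.09 (cytochrome c, Cycs) to -0.05 (Ndufa13) and a median of -0.57. The citric acid cycle and respiratory lists share the 4 Sdh genes. Of the 13 mRNAs of mitochondrial DNA 5 were called lower and 8 were not called, with a median of -0.25. The median was -0.16 without control replicate 2, -0.43 without EGCG replicate 1 and -0.39 with both tables and a table term. Mitochondrial genes took 2.46% to 2.65% of the reads in controls and 1.90% to 2.27% with EGCG.

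Among 21 brown thermogenic genes only 16 passed the filter, of which 10 fell, 1 rose and 5 were not called (median -0.51). Many of these genes lay at a few FPKM, and the median was -0.97 with a pseudocount of 0.1, -1.20 with voom on recovered reads and -0.20 with no filter on low values, where more members entered. The coactivator Ppargc1a (PGC-1α) was at 3.05, 3.50 and 3.43 FPKM in controls and 1.01, 1.02 and 0.767 FPKM with EGCG. Kcnk3, a potassium channel of brown fat, was at 5.49, 7.25 and 7.64 FPKM against 0.568, 0.793 and 0.651 FPKM. Neither overlapped. Dio2, which makes active thyroid hormone within brown fat, was the riser, from 3.32, 2.65 and 2.74 to 5.18, 5.97 and 4.64 FPKM (0.72 ± 0.12, SE, limma adjusted p = 0.00046). Prdm16, the determinant of brown fate, was at 1.34, 1.48 and 1.29 FPKM against 1.61, 1.83 and 1.81 FPKM and was not called (adjusted p = 0.091). Of 7 brown depot identity genes 2 fell (Lhx8 and Meox2, both -0.48), 2 rose (S100b, 0.73, and Tbx5, 0.35) and 3, Zic1 among them, were not called. These counts lie near the 20.6% of all genes called lower and 27.9% called higher. Of 8 white depot identity genes limma called 0 (1 at an unadjusted p under 0.05, and 1 by limma-voom on recovered reads).

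**Figure D3:**
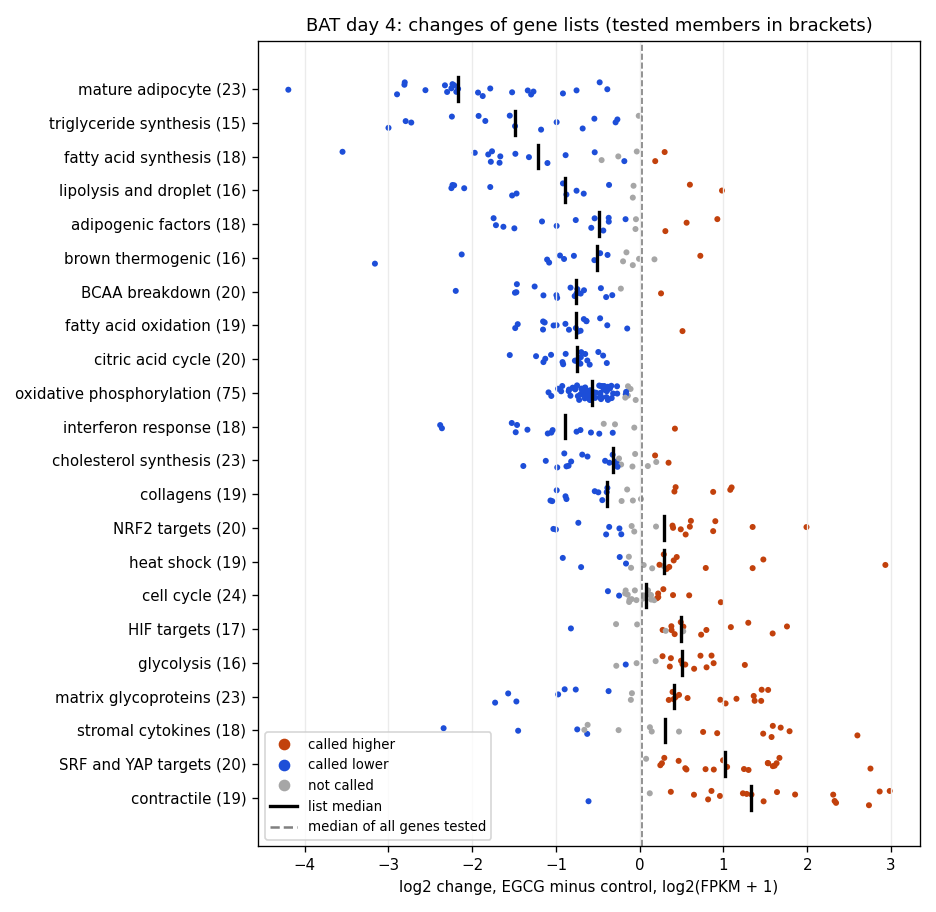
Log2 change with EGCG of every tested member of 22 gene lists, coloured by call, with the list median as a black bar and the median of all 14095 genes (0.03) as a dashed line. Adipocyte and mitochondrial lists lie to the left, with medians down to -2.17, and the SRF and YAP and contractile lists to the right, with medians of 1.02 and 1.33.

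The contractile genes of smooth muscle and myofibroblasts moved the other way. Of 20 listed 19 were tested, of which 17 rose, 1 fell and 1 was not called (median 1.33), against 27.9% of all genes called higher. Acta2 was at 47.5, 61.1 and 64.2 FPKM in controls and 447, 357 and 357 FPKM with EGCG. Tagln was at 44.5, 55.5 and 59.5 FPKM against 371, 306 and 322 FPKM, and the calponin Cnn1, which damps actomyosin, at 0.672, 1.09 and 0.855 FPKM against 9.53, 7.54 and 8.01 FPKM. In all of them the lowest EGCG library was several times the highest control. Myosin light chain Myl9 (8.75, 10.2 and 12.1 FPKM to 56.2, 47.3 and 50.7 FPKM) and tropomyosin Tpm2 (2.31 on the log2 scale) rose alike. The exceptions were Mylk, the kinase of that light chain, which fell from 9.38, 10.2 and 8.61 to 6.10, 5.99 and 4.65 FPKM, and desmin (Des), the intermediate filament of muscle, which was not called (0.12 ± 0.12, SE, adjusted p = 0.43). Myocd, the muscle-specific SRF coactivator, did not pass the filter, at 0.0340 to 0.0815 FPKM in controls and 0.163 to 0.312 FPKM with EGCG.

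Markers of pericytes, the contractile cells of small vessels, were split. Of 8 markers 3 rose (Ndufa4l2, Notch3 and Cspg4), 2 fell (Abcc9 and Kcnj8) and 3 were not called. Of all genes 27.9% were called higher and 20.6% lower. The summed level of the pericyte markers went from 73.5 to 85.5 FPKM in controls to 160.1 to 185.7 FPKM with EGCG. Most of it was Ndufa4l2, which is also a hypoxia target. Of 9 tested skeletal muscle markers limma called 0 (2 at an unadjusted p under 0.05), and 10 other settings called 0 to 3. The part of other contractile cells in the result was not tested.

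Targets and partners of SRF and YAP/TAZ rose with the contractile genes, 19 of 20 with a median of 1.02, against 27.9% of all genes. Ctgf was at 17.6, 21.4 and 35.5 FPKM in controls and 148, 127 and 164 FPKM with EGCG. Ankrd1, a nuclear and sarcomeric YAP target, was at 2.06, 2.14 and 2.02 FPKM against 9.73, 7.34 and 8.05 FPKM, and Axl, a receptor kinase and YAP target, at 39.0, 38.9 and 38.4 FPKM against 128, 118 and 114 FPKM. Groups stood apart in each. The immediate early factors Fos (1.67) and Egr1 (1.25), which SRF also drives, rose as well. The factors themselves differed less, with Yap1 at 0.29, its paralogue Wwtr1 (TAZ) at 0.25, the SRF partner Mkl1 (MRTF-A) at 0.54, all called, and Srf at 0.08, not called (12.6, 12.9 and 12.7 FPKM against 13.7, 13.2 and 13.9 FPKM).

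SRF binds the CArG box, 10 bases with an A/T-rich core. The promoter sequences from RefSeq (build GRCm38.p6, 250 bases before to 50 after each start, both strands searched) held an entry for 16 of the 20 contractile genes. A CArG box was found in 3 of the 16, Myl9, Cnn2 and Vcl (vinculin), all called higher, against 1.81% of 27025 genes with an entry. Among the SRF and YAP targets it was found in 1 of 13 promoters with an entry, that of Srf itself, which was not called. The windows of the first pair, whose members rose by 2.33 and 1.33, are shown with the box in capitals, which begins at -161 and -56 from the start. Myl9 lies at chr2:156775214-156775513 and Cnn2 at chr10:79988350-79988649, both on the plus strand.
Myl9: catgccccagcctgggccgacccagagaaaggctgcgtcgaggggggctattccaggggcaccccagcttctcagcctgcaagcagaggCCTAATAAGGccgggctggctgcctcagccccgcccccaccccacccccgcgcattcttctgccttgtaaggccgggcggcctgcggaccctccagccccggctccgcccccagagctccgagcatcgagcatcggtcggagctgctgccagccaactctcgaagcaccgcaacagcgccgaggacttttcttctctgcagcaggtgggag
Cnn2: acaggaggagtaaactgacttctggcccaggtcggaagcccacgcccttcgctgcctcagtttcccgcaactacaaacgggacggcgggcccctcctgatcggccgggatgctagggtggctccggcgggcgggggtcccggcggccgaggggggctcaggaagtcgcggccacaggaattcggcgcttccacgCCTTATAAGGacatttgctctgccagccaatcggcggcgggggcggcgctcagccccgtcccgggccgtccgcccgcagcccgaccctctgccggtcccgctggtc

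Matrix genes moved in both directions. The collagen list had 10 of 19 genes lower, against 20.6% of all genes, and 5 higher, near the 27.9% of all genes. Collagen VI, abundant around fat cells, fell in all 3 listed chains, with Col6a2 at 326, 334 and 328 FPKM in controls and 155, 164 and 171 FPKM with EGCG. The fibrillar chains Col1a1 (-0.45), Col1a2 (-0.39) and Col3a1 (-0.49) fell by less, while Col12a1, Col4a5 and Col11a1, a fibril-associated, a basement membrane and a fibrillar collagen, rose by 1.10, 1.08 and 0.88. Of 23 matrix glycoproteins 14 rose and 7 fell, against 27.9% and 20.6% of all genes. Lysyl oxidase (Lox), the crosslinker of collagen and elastin, was at 457, 408 and 377 FPKM against 1162, 1064 and 926 FPKM, and fibulin 2 (Fbln2) at 493, 434 and 438 FPKM against 1234, 1165 and 1173 FPKM. Neither overlapped. The thrombospondins Thbs1 (1.53) and Thbs2 (1.46) and Loxl2 (1.16) rose too, whereas the small proteoglycans osteoglycin (Ogn, -1.73), lumican (Lum, -1.47) and decorin (Dcn, -0.76) and elastin (Eln, -0.97) fell. Inhibitors of metalloproteases rose together, Timp1 from 504, 429 and 505 to 1768, 1569 and 1740.0 FPKM, with Timp3 at 1.74 and Timp2 at 1.03, while the gelatinase Mmp9 fell (-1.69) and Mmp14 rose (0.77).

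Glycolysis genes, unlike the mitochondrial genes that follow them, were mostly higher. Of 16 genes 12 rose, 1 fell and 3 were not called (median 0.50), against 27.9% of all genes called higher and 20.6% lower. Phosphoglycerate kinase Pgk1 was at 265, 242 and 284 FPKM in controls and 469.8, 466 and 517 FPKM with EGCG, and hexokinase Hk1 at 14.2, 13.1 and 12.9 FPKM against 34.9, 33.0 and 35.5 FPKM. Both stood apart without overlap. Aldolase A (Aldoa) fell slightly (-0.17, adjusted p = 0.020) with overlapping groups. Gapdh rose 1.57-fold in the first table and went from 1254 to 1833 FPKM in the second, so the direction was shared although the level was not comparable. Of 17 targets of HIF, the hypoxia factor, 12 rose, 1 fell and 4 were not called (median 0.49), against the same shares of all genes. The glucose carrier Slc2a1 (GLUT1) was at 36.0, 31.5 and 39.0 FPKM against 86.3, 82.0 and 98.9 FPKM, opposite to GLUT4. Adrenomedullin (Adm, 1.59) and the prolyl hydroxylase Egln3 (1.09) rose, Vegfa was not called (116, 114 and 101 FPKM against 115, 111 and 105 FPKM, -0.03, adjusted p = 0.60), and Ero1l, the disulphide oxidase of the endoplasmic reticulum, fell (-0.82).

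Genes of the type I interferon response were lower. Interferons switch on antiviral genes through the interferon-stimulated response element in their promoters. Of 18 genes 14 fell, 1 rose and 3 were not called (median -0.90), against 20.6% of all genes called lower. The log2(FPKM + 1) scale understates changes of low genes, and the median was -1.54 with a pseudocount of 0.1 and -1.71 with voom on recovered reads. Isg15, a ubiquitin-like antiviral protein, was at 11.8, 12.3 and 9.92 FPKM in controls and 1.45, 1.56 and 2.70 FPKM with EGCG. Bst2 (tetherin), which holds budding viruses at the membrane, was at 35.4, 26.3 and 30.6 FPKM against 9.90, 11.0 and 11.8 FPKM, and Ifit1, a sensor of foreign RNA caps, at 2.42, 3.99 and 2.42 FPKM against 0.377, 0.588 and 0.457 FPKM. All 3 were apart in every library. Irf7, a factor that amplifies the response, fell by 1.34. The riser was Ifit2 (1.37, 1.63 and 1.04 FPKM to 2.39, 2.29 and 2.04 FPKM).

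The response element was searched as GAAA, any NN and GAAA (N stands for any base) on both strands of the same promoter windows. It was present in 8 of the 15 interferon genes with an entry, 7 of them called lower, against 3.99% of 27025 genes. The windows of the 3 genes given above carry it close to the start and are shown with every match in capitals, overlapping matches running together and those of Ifit1 reading on the other strand. Isg15 lies at chr4:156200769-156201068 on the minus strand, Ifit1 at chr19:34640639-34640938 on the plus strand and Bst2 at chr8:71537423-71537722 on the minus strand.
Isg15: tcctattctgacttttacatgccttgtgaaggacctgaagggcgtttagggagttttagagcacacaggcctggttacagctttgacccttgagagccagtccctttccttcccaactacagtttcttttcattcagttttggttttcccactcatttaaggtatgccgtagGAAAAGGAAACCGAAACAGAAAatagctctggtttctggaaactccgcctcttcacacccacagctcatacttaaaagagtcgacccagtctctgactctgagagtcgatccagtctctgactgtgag
Ifit1: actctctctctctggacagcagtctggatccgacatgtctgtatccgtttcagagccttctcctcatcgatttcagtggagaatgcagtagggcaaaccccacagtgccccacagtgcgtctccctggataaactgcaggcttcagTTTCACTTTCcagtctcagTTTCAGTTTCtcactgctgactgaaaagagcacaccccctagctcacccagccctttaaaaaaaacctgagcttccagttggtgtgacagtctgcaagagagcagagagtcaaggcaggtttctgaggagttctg
Bst2: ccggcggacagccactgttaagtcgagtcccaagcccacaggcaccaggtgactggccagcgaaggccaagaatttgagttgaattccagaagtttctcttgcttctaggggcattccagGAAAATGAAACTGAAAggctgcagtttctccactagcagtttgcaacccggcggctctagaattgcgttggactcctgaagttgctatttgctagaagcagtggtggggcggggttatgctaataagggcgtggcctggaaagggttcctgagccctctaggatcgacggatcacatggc

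Cytokines of stromal cells did not follow the interferon genes. Of 18 listed 8 rose, against 27.9% of all genes, 4 fell, near the 20.6% of all genes, and 6 were not called. Interleukin 6 (Il6) went from 4.25, 3.25 and 1.64 to 12.8, 13.3 and 10.7 FPKM, the monocyte chemokine Ccl2 from 9.46, 9.03 and 8.63 to 33.9, 30.0 and 25.7 FPKM, and the macrophage growth factor Csf1 from 125, 119 and 113 to 364, 317 and 275 FPKM. No library overlapped. Ccl7 (1.79) and the prostaglandin synthase Ptgs2 (1.59) rose too. Those that fell were complement C3 (145, 166 and 171 FPKM to 26.1, 34.0 and 29.1 FPKM), which adipocytes make in large amounts, serum amyloid Saa3 (-1.45), and the chemokines Cxcl12 (-0.63) and Ccl5 (-0.75).

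The targets of NRF2, the sensor of electrophiles and oxidants, moved in both directions. Of 20 genes 10 rose, 7 fell and 3 were not called (median 0.29), against 27.9% of all genes called higher and 20.6% lower. Haem oxygenase Hmox1 was at 125, 129 and 130.0 FPKM in controls and 529.8, 488 and 516 FPKM with EGCG. Gclc, the rate-limiting ligase of glutathione synthesis, was at 26.2, 23.4 and 20.6 FPKM against 64.8, 64.2 and 54.5 FPKM. Each rose without overlap, with the quinone reductase Nqo1 (0.88), the ferritin chains Ftl1 (0.90) and Fth1 (0.39) and the thioredoxin reductase Txnrd1 (0.60). The pentose phosphate enzymes, which supply NADPH for fatty acid synthesis as well, all fell, with Taldo1 (152, 173 and 190.5 FPKM to 83.2, 78.3 and 89.7 FPKM), G6pdx (-0.73), Pgd (-0.40) and Tkt (-0.36), and so did the cystine carrier Slc7a11 (-1.03), the glutathione reductase Gsr (-0.24) and the biliverdin reductase Blvrb (-0.22). Of 17 glutathione S-transferases tested 4 rose and 5 fell, near the 27.9% and 20.6% of all genes.

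Among heat shock genes, 10 of 19 rose, against 27.9% of all genes, and 4 fell, near the 20.6% of all genes. The risers were led by small heat shock proteins of muscle and the cytoskeleton, Cryab (16.4, 19.8 and 21.4 FPKM to 154, 135 and 135 FPKM), Hspb2 (1.48) and Hspb1 (41.4, 40.7 and 46.5 FPKM to 103, 109 and 113 FPKM). The inducible Hspa1a was not called (0.28) and Hspa1b rose by 0.35. The mitochondrial chaperonins Hspd1 (322, 339.8 and 342 FPKM to 179.6, 169.7 and 179.6 FPKM) and Hspe1 (-0.70) fell. The list of endoplasmic reticulum stress and ATF4 genes had 9 of 20 higher, among them Atf3 (1.41) and Atf4 (0.48). It had 5 lower, near the 20.6% of all genes, among them the chaperone Hspa5 (BiP, -0.65) and Trib3 (-1.09).

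Of 24 cell cycle genes 7 rose, 2 fell and 15 were not called by limma (median 0.07), against 27.9% of all genes called higher and 20.6% lower. The 7 that rose were the ribonucleotide reductase subunits Rrm2 (27.8, 30.0 and 25.3 FPKM to 59.4, 55.6 and 49.0 FPKM) and Rrm1 (0.59), the replicative helicase subunits Mcm2, Mcm3, Mcm4 and Mcm7 (0.21 to 0.40) and Pcna (0.22). The mitotic checkpoint and kinase genes Plk1 (-0.38) and Bub1b (-0.25) fell, and Mki67, the common proliferation marker, was at 16.4, 15.8 and 13.2 FPKM against 14.7, 16.2 and 13.8 FPKM, with overlapping groups (-0.06, adjusted p = 0.56). Without EGCG replicate 2 only 3 genes rose, and in a fit of all 6 libraries with a table term the list had 11 higher and 6 lower.

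Markers of cells other than adipocytes also moved. Their counts stand beside 27.9% of all genes called higher and 20.6% called lower. Of 9 tested endothelial markers 8 rose, and their sum went from 15.2 to 18.5 FPKM in controls to 48.7 to 56.3 FPKM. The junction protein Pecam1 was at 4.19, 5.24 and 4.46 FPKM against 14.0, 15.4 and 13.5 FPKM. Of 12 tested macrophage markers 8 rose, with the sum going from 210.8 to 237.5 FPKM to 444.8 to 534.8 FPKM, most of it lysozyme (Lyz2, 142, 133 and 154 FPKM to 355, 314 and 382 FPKM). The defining macrophage gene Adgre1 (F4/80) was at 2.61 to 3.17 FPKM against 3.64 to 4.53 FPKM, and Csf1r, Cd14, Itgam and Fcgr1 were not called. The Schwann cell factor Sox10 went from 6.51 to 6.94 FPKM to 16.1 to 22.3 FPKM, and 3 of 5 tested Schwann cell markers rose and 1 fell. Mesothelial markers summed to 3.76 FPKM or less, with Upk3b and Muc16 listed at 0 in all 6 libraries. The fibroblast markers Col1a1, Col3a1, Dcn and Lum fell and Pdgfra was not called (-0.19). These levels differed together with the rise of the cytokine and matrix genes and the fall of the adipocyte genes, and their part in those results was not tested.

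**Figure D4:**
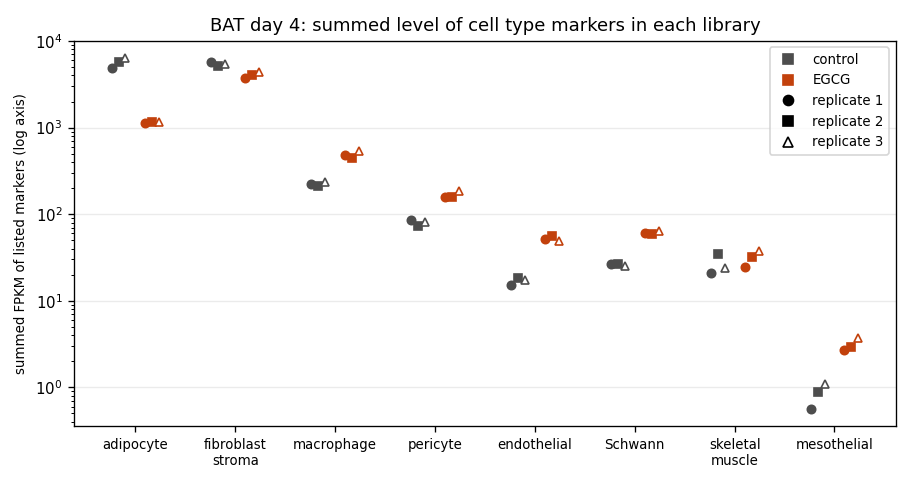
Summed FPKM (log axis) of 8 cell type marker lists in each of the 6 BAT day 4 libraries, controls in grey and EGCG in orange. Adipocyte markers drop from 4871 to 6343 FPKM in controls to 1134 to 1158 FPKM, endothelial, macrophage, pericyte, Schwann and mesothelial sums are higher in every EGCG library, and skeletal muscle sums overlap.

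The BAT day 4 response was set against WAT day 4 by testing the difference of the EGCG effects. The difference was called for 28.1% of genes, 12% with a higher and 16.1% with a lower effect in BAT. Of these calls 42.66% were higher in BAT, which became 60.4% with median-ratio factors, so the balance over all genes depends on the scaling. The contractile list differed most plainly, with a higher effect in BAT for 18 of 19 genes and a lower one for Des. Acta2 in WAT day 4 cells went down, from 97.5, 80.4 and 83.0 FPKM in controls to 39.0, 37.5 and 41.4 FPKM with EGCG, so its effect was 4.06 ± 0.25 (SE) higher in BAT (limma adjusted p = 1.3e-06). In WAT, 11 of the 19 contractile genes fell and 5 rose, against 2714 and 4853 of all 14095 genes tested. For SRF and YAP targets the effect was higher in BAT in 16 of 20 genes, and for Ctgf by 3.71 ± 0.26 (SE). For the 12 genes that rose and 12 that fell most, the effect differed between depots in 17. They were chosen by their change in BAT day 4, which is part of that difference, so this count is no separate result. Of the 12 that rose most in BAT day 4, 8 also rose in WAT day 4 and 4 fell, while all 12 that fell most also fell in WAT day 4.

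Other lists differed as well. Their counts in WAT day 4 stand beside 4853 genes called higher and 2714 called lower of all 14095 tested. Interferon genes fell further in WAT, where all 18 fell with a median of -1.46, and the difference was called for 12, always with a higher effect in BAT. Of those 12, 9 fell in both depots, by less in BAT, and Ifit2 fell in WAT and rose in BAT. Isg15 was 1.32 ± 0.22 (SE) less lowered in BAT. Glycolysis genes rose further in WAT (15 of 16, median 1.32), and 14 differed, all with a lower effect in BAT. Of those 14, 12 rose in both depots, by less in BAT, and Aldoa rose in WAT and fell in BAT. NRF2 targets had 15 of 20 higher in WAT and a lower effect in BAT for 13. Of those 13, 7 rose in both depots, by less in BAT, and 3, Slc7a11, Gsr and Pgd, rose in WAT and fell in BAT. Hmox1 was at 203, 192 and 194 FPKM in WAT day 4 controls and 1155, 1082 and 1236 FPKM with EGCG. Cell cycle genes, 17 of 24 lower in WAT and none higher, had a higher effect in BAT for 15. Cholesterol synthesis had 12 of 23 genes higher in WAT, and a lower effect in BAT for 18, of which 5 rose in WAT and fell in BAT. Adiponectin fell by 4.30 in WAT against 2.17 in BAT, and the mature adipocyte list had a smaller fall in BAT for 12 of 23 genes and a larger one for 7.

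From day 4 to day 8 of BAT differentiation the difference was called for 55.4% of genes, 34.7% upward and 20.6% downward. Upward calls made up 62.76% of them, and 46.85% with median-ratio factors. At day 8 itself EGCG raised 6549 and lowered 3682 of the 14095 genes tested. The mature adipocyte genes fell further at day 8 in 22 of 23, with a median change of -4.22 at that day. The glycolysis list turned round. Of its 16 genes, 15 were lower with EGCG at day 8 and 1, Hk1, was higher, and all 16 differed from day 4. Pgk1 at day 8 was at 656, 717 and 721 FPKM in controls and 321, 305 and 379 FPKM with EGCG. HIF targets turned likewise (14 of 17 lower at day 8, 16 differing). Contractile genes were still raised at day 8 in 15 of 19. The effect was lower than at day 4 in 12 genes, of which 9 rose on both days, while Myh11, Smtn and Des were lower with EGCG at day 8. Acta2 at day 8 was at 209, 249.8 and 294 FPKM in controls and 755, 841 and 989 FPKM with EGCG. Macrophage markers, raised at day 4, were lower with EGCG at day 8 in 11 of 12. In these lists the direction of most calls was the same in 7 other settings of pseudocount, filter, scaling, block and read-based weights.

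**Figure D5:**
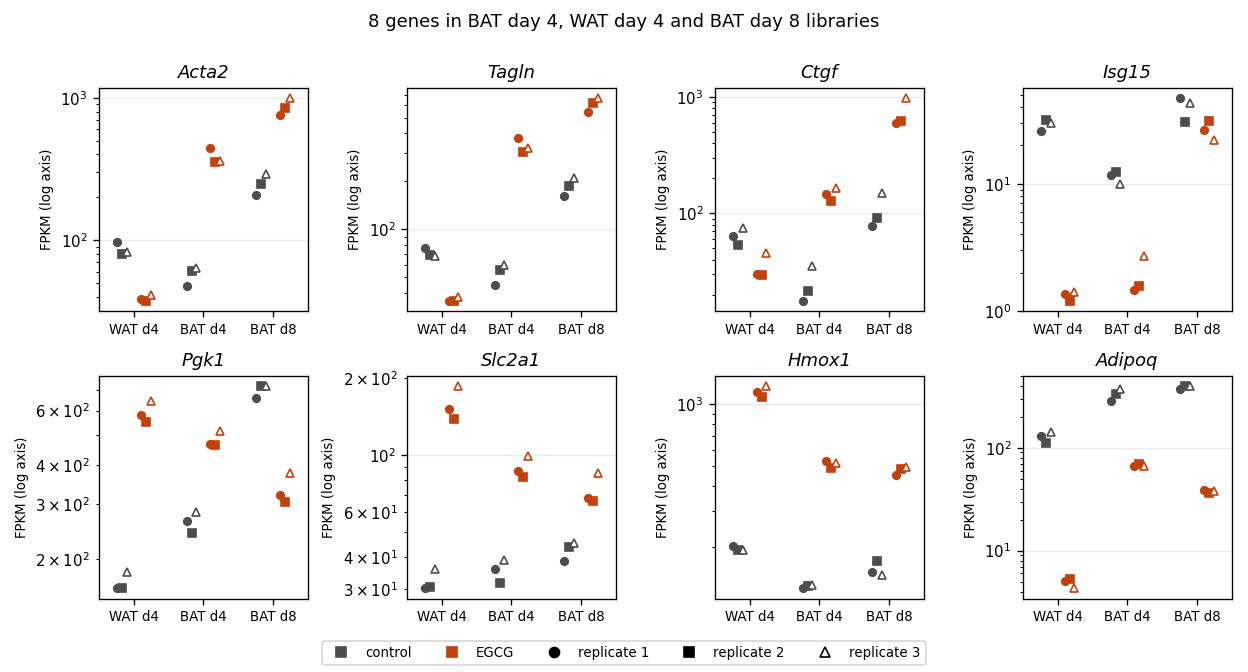
FPKM (log axes) of 8 genes in WAT day 4, BAT day 4 and BAT day 8 libraries, controls in grey and EGCG in orange, replicate 3 as open triangles. Acta2, Tagln and Ctgf are higher with EGCG in BAT at both days and lower in WAT day 4, Pgk1 is higher at day 4 in both depots and lower in BAT day 8, and Hmox1 is higher and Adipoq lower with EGCG in all 3 settings.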

How the data were processed

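RNA-seq values were FPKM per gene, deposited by the authors in 2 separately made tables (replicates 1 and 2, and replicate 3), with FastQC 0.11.9, HISAT2 2.2.0, HTSeq 0.11 and mm9 named in the submitters' processing notes. Every FPKM value came out as a whole number of reads (100% within 0.01 of a read), from which totals of 16803199 to 49311089 reads per BAT day 4 library followed. The ± SE values come from the spread between libraries as limma estimates it, and floors cover counting error only.

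Groups came from the labels. limma 3.58.1 (R 4.3.3, moderated test with trend) was run on log2(FPKM + 1) for the 16 libraries of replicates 1 and 2, whose 8 groups share 1 estimate of spread, on genes at FPKM 1 or more in at least 2 libraries, with Benjamini-Hochberg adjustment and a threshold of 0.05, two-sided. Replicate 3 was read for direction only. The difference of EGCG effects between depots or days was tested as a contrast of the same model. Limma-voom on the recovered reads, scaling, filter, pseudocount, block, table-term and leave-out fits were alternatives. On simulated data with 13140 genes, 99.03% of 103 genes changed by 1 and 100% of 97 changed by 2 on the log2 scale were called.

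Named genes were the 12 highest and 12 lowest changes among called genes with a mean of at least 5 FPKM in the higher group and the same sign in all 3 replicates, and the 4 highest and 4 lowest for each difference of effects. Some items are not reported here. Members, lists and tests were chosen with earlier results of these data known. Promoters came from RefSeq (GRCm38.p6), 32851 windows. Python 3.11.15 with pandas 2.3.3 and matplotlib 3.10.9 made tables and figures.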

Additional observations from a re-analysis of the deposited data

Results flagged for a closer look

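The EGCG effect in BAT day 4 differed from that in WAT day 4 for 3959 genes and from that in BAT day 8 for 7803 genes, by limma's test of the difference itself. Between depots the difference was widest upward for the contractile genes Actg2 (4.39), Acta2 (4.06) and Tagln (3.75) and for Ctgf (3.71), which all rose in BAT day 4 and fell in WAT day 4.

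It was widest downward for A2m, a broad protease inhibitor (-3.01), Chl1, a neural adhesion protein (-2.98), Prl2c2, the prolactin-like proliferin (-2.86), and H2-Ab1, a chain of MHC class II (-2.49). A2m was at 23.2, 14.0 and 18.1 FPKM in BAT day 4 controls and 20.8, 22.1 and 23.9 FPKM with EGCG, and went from 19.5, 22.3 and 22.8 to 215, 197 and 209 FPKM in WAT. Chl1 fell in BAT (19.5, 14.4 and 12.2 FPKM to 3.96, 6.13 and 5.78 FPKM) and rose in WAT. H2-Ab1 rose in both, from at most 0.826 FPKM to 3.50, 2.98 and 4.09 FPKM in BAT and to 15.0 FPKM or more in WAT. Prl2c2 belongs to a family of near-identical genes, so its reads are uncertain.

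Between BAT days the difference was widest downward for Aspg (-5.67), 8430408G22Rik (-5.40), the retinol carrier Rbp4 (-5.33) and the respiratory subunit Cox7a1 of brown fat (-5.30). Cox7a1 was at 2.87, 3.54 and 3.43 FPKM in BAT day 4 controls and 2.63, 2.67 and 3.18 FPKM with EGCG, whereas day 8 controls held 191, 190 and 176 FPKM and EGCG cells 2.87, 3.64 and 4.30 FPKM. The gene 8430408G22Rik turned round, rising at day 4 (2.98, 4.32 and 3.93 FPKM to 17.6, 16.7 and 18.0 FPKM) and falling at day 8. It was widest upward for Prl2c2 (4.07), the fatty acid carrier Fabp3 (3.00), Igfbp5 (2.94) and the histone gene Hist1h4n (2.85), none of which was called in BAT day 4. Fabp3 overlaps Zcchc17, and Hist1h4n has near-identical copies.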

How the results depend on the processing

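The 6838 called genes became 5845 with a filter at FPKM 5, which tests fewer genes, and 7872 with 12 BAT libraries of both tables and a table term, and the other settings that kept all libraries lay between. The ≥2-fold count moved from 864 to 1521 with a pseudocount of 0.1 and to 1591 with voom on recovered reads. The same direction in replicate 3 held for 95.5% of called genes under median-ratio scaling within each table and for 96.06% of those past 2-fold. No called gene became called in the opposite direction under any alternative, and all 24 named genes kept sign and call. Leaving out 1 BAT day 4 library left 5481 to 5776 calls, 444 to 453 list members, 2882 to 3191 depot differences and 7055 to 7266 day differences. Leaving out a replicate of both tables gave 6616 to 6962 calls and 497 to 501 list members.

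The replicate numbers did not pair the samples (r = 0.0084 between same-numbered deviations of replicates 1 and 2). Over all 3 replicates r was 0.786, 0.805 and 0.945, but control replicate 1 correlated more with EGCG replicate 2 (0.796), so this follows the table and not the number. With the replicate block 6710 genes, 474 list members, 3824 depot and 7748 day differences were called.

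Scaling moved the balance of directions. Of the called genes 57.59% were higher, against 52.81% with median-ratio factors and 51.06% after quantile normalization. For the depot difference 42.66% became 60.4% and 49.86%, and for the day difference 62.76% became 46.85% under median-ratio scaling, where the median of all genes moved from 0.127 to -0.007. Mitochondrially encoded members called lower went from 5 to 9, cell cycle members called higher from 7 to 11 with 6 libraries of both tables, glucocorticoid members called lower from 5 to 3 without EGCG replicate 1, and endothelial markers called higher from 8 to 5 at FPKM 5. The filter at FPKM 5 tests 10129 genes in place of 14095, and members below it cannot be called. The cause of each move was not tested.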

Other observations

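Insulin and IGF signalling genes leaned lower, with 9 of 16 fallen, against 20.6% of all genes, and 4 risen, near the 27.9% of all genes. Igf1 was at 40.4, 38.3 and 37.4 FPKM in controls and 8.93 FPKM or less with EGCG, without overlap (log2 change -2.14). The imprinted H19 (438, 414 and 493 FPKM to 173, 211 and 245 FPKM), the PI3-kinase subunit Pik3r1 (-1.30) and the insulin receptor Insr (-0.61) fell, while the IGF receptor Igf1r (0.75) and Igfbp6 (1.13) rose.

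Glucocorticoid-responsive genes, of interest because dexamethasone was in the medium of both groups, split with 8 of 16 higher and 5 lower. Of all genes 27.9% were called higher and 20.6% lower. Sgk1, a kinase that regulates sodium transport, went from 25.6, 25.1 and 26.1 to 106, 90.4 and 79.5 FPKM, and metallothionein Mt1 from 1546, 1361 and 1768 to 3143, 2733 and 3091 FPKM. Lipocalin 2 (Lcn2, -1.83) and the sulphotransferase Sult1a1 (-2.05) fell, and the common targets Fkbp5 and Tsc22d3 were not called.

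Of 17 genes of progenitors 9 rose and 3 fell, against 27.9% and 20.6% of all genes. Dlk1, the preadipocyte factor that holds back differentiation, was at 15.3, 15.1 and 15.0 FPKM in controls and 3.37, 3.99 and 4.06 FPKM with EGCG, and Sfrp2 fell as well (-1.42), whereas nestin (Nes, 1.59) and endoglin (Eng, 1.45) rose. Of 15 iron genes 5 rose, near the 27.9% of all genes, and 6 fell. The metalloreductase Steap4 was at 32.9, 36.0 and 36.8 FPKM against 6.09, 8.38 and 8.58 FPKM, and the ferritin chains were higher.

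The heat shock element, searched as GAANNTTC on both strands, was in 10 of 14 heat shock promoters (4 of genes called higher, 3 lower) against 9.04% of 27025 genes, and the antioxidant response element TGACNNNGC in 6 of 15 NRF2 target promoters (3 higher, 2 lower) against 14.0%. Of the 332 genes that stood apart in the third replicate of both groups, 316 were lower there, of which 140 were pseudogenes and 101 small RNAs. Nme2 was at 0.958 and 0.857 FPKM in the first pair of controls and 137 FPKM in the third.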
